A study of Mus musculus with 2 samples.

Results

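The immunoglobulin heavy and light chain genes code for antibodies. Here they are the rows of the deposited count table whose symbols begin with Ighv, Ighg, Igha, Ighm, Ighd, Ighe, Igkv, Igkc, Igkj, Iglv, Iglc or Iglj, with Ighmbp2, an unrelated helicase gene, left out. That rule gave 252 of 27376 genes, and no measured value entered it. They comprised 111 heavy chain variable (V) genes, 20 heavy chain diversity (D) segments, 7 rows of heavy chain constant genes, 103 kappa V genes, 5 kappa joining (J) segments, the kappa constant gene Igkc, 3 lambda V genes and 2 lambda constant genes. On mouse build mm9 the heavy chain genes lay on chromosome 12, the kappa genes on chromosome 6 and the lambda genes on chromosome 16.

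An antibody is built from paired heavy and light chains, and a developing B cell joins V, D and J segments of the heavy locus and V and J segments of a kappa or lambda locus into a single reading frame. A naive B cell makes IgM and IgD from the Ighm and Ighd constant genes, and class switching later replaces them with a gamma, epsilon or alpha constant gene. Plasma cells, the end stage of the lineage, devote much of their messenger RNA to secreted antibody, so that their chains can be abundant in a tissue in which plasma cells are few.

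Prostate tumour tissue of mice aged 16 months was sequenced as 1 library of the genotype named Bcat_Only and 1 of the genotype named Met_Bcat. The column header of the Bcat_Only library adds a beta-catenin allele written Bcat_ex3Plus and the Cre driver PB_Cre, while that of Met_Bcat holds a code only. No other allele, strain or treatment, and no number of animals behind a library, is given in the sources used here. No sort of cells is described, so each library can mix tumour epithelium with stroma and immune cells. All 14 luminal prostate markers examined, among them Hoxb13, had reads in both libraries. With 1 library per group no difference between genotypes could be tested. Every interval below is an exact 95% interval of counting error alone, and it holds neither the spread between animals nor that of library preparation.

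The 4 gamma genes differ in their hinge exon, among other parts. This exon codes for the flexible link between the antigen-binding arms and the stem of the antibody. Reads of these genes can be told apart outside the hinge as well. Of coding stretches as long as a read, 99.2% of those in Ighg1 occur in no other gene of the reference transcripts. The values were 91.2% for Ighg2b, 94.5% for Ighg2c and 96.7% for Ighg3. The hinges are shown first because the ratio among these genes differed between the libraries. They are exon 2 of each constant gene, from GENCODE M21 transcripts on GRCm38, written 5′ to 3′ with the cysteine codons in capitals. Hinge cysteines include those that form the bridges between the paired heavy chains.
Ighg1: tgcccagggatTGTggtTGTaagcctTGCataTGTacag
Ighg2b: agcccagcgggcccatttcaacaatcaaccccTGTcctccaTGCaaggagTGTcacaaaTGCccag
Ighg2c: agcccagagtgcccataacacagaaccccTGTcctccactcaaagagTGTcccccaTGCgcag
Ighg3: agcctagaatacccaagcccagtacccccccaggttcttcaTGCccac
The Ighg1 hinge was the shortest at 39 bases, with 4 cysteine codons. The Ighg2b hinge had 66 bases and 4 such codons, that of Ighg2c 63 bases and 3, and that of Ighg3 48 bases and 1.

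Ighv3-6 and Igkv10-96 were the most counted heavy and kappa V genes of both libraries, so the last 240 bases of their germline coding sequences are given from the same transcripts. The last in-frame cysteine codon, which precedes the joining point, is in capitals. On mm9 Ighv3-6 spans chr12:115526363-115526793 and Igkv10-96 spans chr6:68581957-68582424, both on the minus strand.
Ighv3-6: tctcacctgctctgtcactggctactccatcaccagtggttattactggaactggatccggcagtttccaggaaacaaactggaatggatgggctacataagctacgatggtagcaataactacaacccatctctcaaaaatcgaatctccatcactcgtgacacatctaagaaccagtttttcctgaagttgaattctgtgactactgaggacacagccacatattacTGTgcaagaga
Igkv10-96: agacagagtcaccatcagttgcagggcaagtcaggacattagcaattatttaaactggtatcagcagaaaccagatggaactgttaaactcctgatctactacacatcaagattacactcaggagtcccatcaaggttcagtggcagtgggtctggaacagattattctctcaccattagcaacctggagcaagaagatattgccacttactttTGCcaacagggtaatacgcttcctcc
In Ighv3-6 the germline sequence ran on for 8 bases after that codon and in Igkv10-96 for 23 bases, the stretch that the joining step then trims and extends in each B cell.

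The listed antibody genes took 2.27% of all reads counted on genes in the Bcat_Only library and 0.00997% in the Met_Bcat library. The Bcat_Only library held 437596 reads of these antibody genes among 19301062 counted reads, and the Met_Bcat library 2005 among 20117724. After scaling by trimmed mean of M values (TMM), the level in CPM (counts relative to the scaled library size) was 249.7-fold lower in Met_Bcat, with an interval of 239 to 261. In bulk tissue, fewer cells of the B lineage and less antibody RNA per cell cannot be told apart.

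Every class of antibody gene with reads was lower in Met_Bcat, from 19.8-fold for the lambda constant genes to 551-fold for the heavy constant genes (496 to 615). The gamma genes, a part of the heavy constant genes, were together 1105-fold lower (951 to 1292). Igkc, the constant gene of all kappa chains, went from 204548 reads in Bcat_Only to 1119 in Met_Bcat, a 209-fold gap (197 to 222). The kappa V genes were 182-fold lower (163 to 203), the lambda V genes 102-fold (62.8 to 179) and the heavy V genes 82.9-fold (71.0 to 97.4). The 2 lambda constant genes had the smallest difference of these classes, 19.8-fold (13.2 to 30.9). Their interval lies below those of the classes just named. The single heavy constant gene Ighm, given below, differed less still.

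Of the 252 genes, 211 had a read in Bcat_Only and 133 in Met_Bcat, and 40 had none in either. The latter included all 20 heavy D segments, which are shorter than a read. A gene was called lower or higher where even the bound of its interval closer to equality reached 2-fold and its mean reached 1 CPM. Under that rule 150 genes were lower in Met_Bcat and 0 were higher, and 144 of the 150 passed the minimum only through their level in Bcat_Only, so they had to differ. Among all 14354 genes with that mean, 14.6% were lower and 4.42% were higher, and the median log2 ratio was 0.03. With 4-fold in place of 2-fold the antibody genes gave 150 lower and 0 higher, beside 7.57% and 1.75% over all genes. Calls over all genes were 76.8% in the lower direction, and 87.3% when the libraries were scaled on the luminal markers. With no minimum, 180 of the 212 antibody genes with a read were lower and 0 higher, beside 12.2% lower and 3.68% higher over all genes with a read. Only Ighv12-3 had more reads in Met_Bcat, 2 against 0, a gap below the 3 reads taken as the floor. A floor of 3 reads corresponds to 0.163 CPM in Bcat_Only and 0.142 CPM in Met_Bcat.

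Among the heavy chain constant genes, IgG transcripts dominated the Bcat_Only library, whereas IgM and IgG transcripts were close to equal in Met_Bcat. Ighm, which codes for the mu chain of IgM, was counted 1573 times in Bcat_Only and 174 times in Met_Bcat, which is 10.3-fold (8.84 to 12.2). Ighm thus made up 0.949% of heavy constant reads in Bcat_Only (0.903 to 0.997) and 50.6% in Met_Bcat (45.2 to 56.0). Gamma reads per mu read came to 104 in Bcat_Only (99.3 to 110), against 0.977 in Met_Bcat (0.786 to 1.21). Per kilobase of exon the ratios were 138 and 1.22, so gamma transcripts led by far in one library and were level with mu in the other. These ratios are formed within a library and do not depend on the scaling between libraries.

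Ighg1, the gamma gene of the IgG1 subclass, had 96733 reads in Bcat_Only but 34 in Met_Bcat. It showed the largest difference of any antibody gene with reads in both libraries, 3255-fold (2329 to 4700). Ighg2c had 45733 and 87 reads and was 601-fold lower (487 to 751), and Ighg2b had 21583 and 49 reads and was 504-fold lower (381 to 681). The interval of Ighg1 lies above those of Ighg2c and Ighg2b, and the latter overlap each other. Ighg3 had 148 reads against 0, a level at least 56.4-fold lower when its absence is set at 3 reads. IgG1 is the subclass most often tied to interleukin-4 in mice, and IgG2c the one most often tied to interferon gamma.

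The makeup of the IgG transcripts therefore differed as well as their amount. Ighg1 was 58.9% of gamma reads in Bcat_Only (58.7 to 59.2) and 20% in Met_Bcat (14.3 to 26.8). Ighg2c was 27.9% in Bcat_Only and 51.2% in Met_Bcat (43.4 to 58.9), and Ighg2b 13.1% and 28.8% (22.1 to 36.3). Bcat_Only had 2.12 Ighg1 reads per Ighg2c read (2.09 to 2.14) and Met_Bcat 0.391 (0.255 to 0.587), intervals that lie apart. The ratio of Ighg2c to Ighg2b was 2.12 and 1.78, and the interval of the latter, 1.24 to 2.57, holds both values. Ighg3 had no read among the 344 heavy constant reads of Met_Bcat. Set at the floor of 3 reads its share would be 0.872%, and its exact interval reaches 1.07%. Both lie above its 0.0893% share in Bcat_Only.

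**Figure D1:**
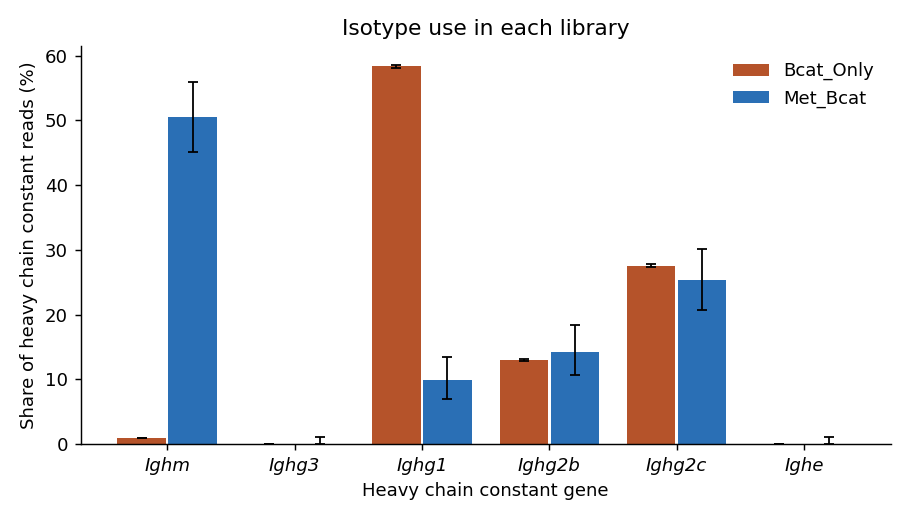
Share of heavy chain constant reads (%) taken by each constant gene in the 2 libraries, with exact 95% intervals of counting error as bars. Ighg1 leads in Bcat_Only at 58.3% and Ighm in Met_Bcat at 50.6%, while Ighg2b and Ighg2c have overlapping intervals.

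IgE transcripts were few. The epsilon gene Ighe has overlapping rows, of which one had 13 reads in Bcat_Only and 0 in Met_Bcat and the other 0 in both. Its level was at least 4.96-fold lower, and its share of heavy constant reads in Bcat_Only was 0.00784%. How reads that fall in both Ighe rows were counted is not given in the sources used here, so this count is uncertain. The rule found no row for the constant genes of IgA and IgD, which are not analysed here, so the isotype shares leave both out.

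Ordered by CPM per kilobase of exon, the constant genes in Bcat_Only ran from Igkc at 34373 through Ighg1 at 5391, Ighg2c at 2048 and Ighg2b at 1160 to Ighm at 62.5, Iglc2 at 21.7, Iglc3 at 17.8 and Ighg3 at 8.10. In Met_Bcat the order was Igkc at 164, Ighm at 6.04, Ighg2c at 3.41, Ighg2b at 2.30, Ighg1 at 1.66, Iglc2 at 1.64 and Iglc3 at 0.327. Ighm stood in the fifth place in Bcat_Only and in the second in Met_Bcat. In Met_Bcat the place of Ighg1 is not settled by its 34 reads. Its level was next to that of Iglc2 with 21 reads, and it could not be ordered against Ighg2b, since the interval of their read ratio, 0.434 to 1.10, includes equality.

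**Figure D2:**
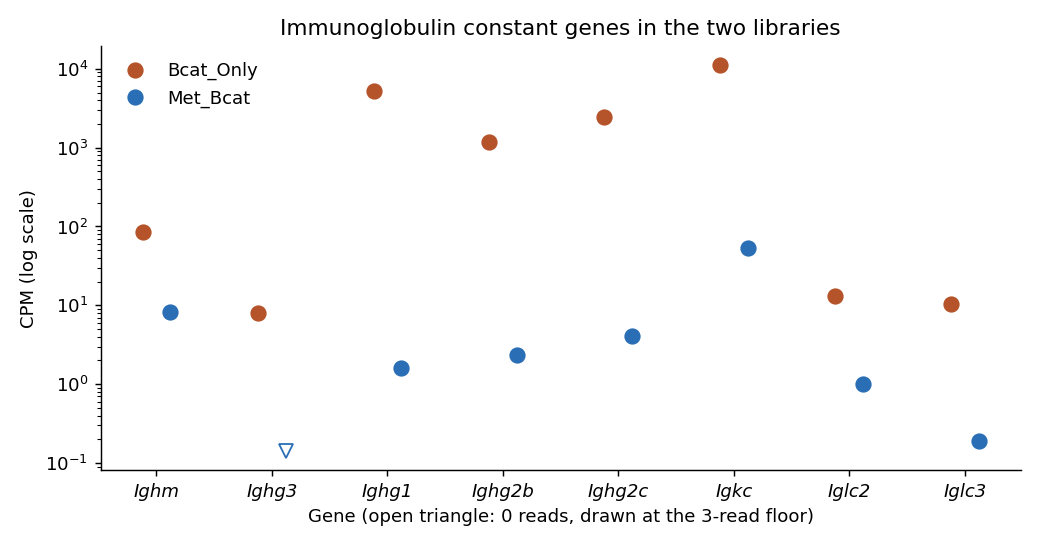
Level of 8 constant genes in CPM (log axis), 1 point per library, with the open triangle marking 0 reads drawn at the 3-read floor. The points of Ighg1 lie farthest apart and those of Ighm closest, at 3255-fold and 10.3-fold.

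Kappa chains far outnumbered lambda chains in both libraries, as is usual in mice, in which most antibodies carry kappa. Igkc reads exceeded the summed reads of Iglc2 and Iglc3 by a ratio of 473 in Bcat_Only (431 to 522) and of 44.8 in Met_Bcat (30.2 to 69.5). Measured on V genes the ratio was 37.5 (35.6 to 39.5) and 21.1 (12.8 to 37.4), intervals that overlap, with 16 lambda V reads in Met_Bcat. Per kilobase the constant gene ratio was 872 and 83.4. The exon lengths used were 323 bases for Igkc but 606 for Iglc2 and 581 for Iglc3. Their coding bases in the reference were alike, at 320, 312 and 314, so the higher per-kilobase ratio comes from the longer lambda rows. Iglc1, the constant gene that pairs with Iglv1 rearrangements, is not among the rows and is not analysed here, so the constant gene ratio counts only some of the lambda chains.

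Iglc2 went from 242 to 21 reads between Bcat_Only and Met_Bcat, a 13.2-fold difference (8.43 to 21.7), and Iglc3 from 190 to 4, a 54.3-fold difference (20.9 to 201). Bcat_Only had 1.27 Iglc2 reads per Iglc3 read (1.05 to 1.55) and Met_Bcat 5.25 (1.77 to 21.0), intervals that lie apart. Iglv1 had 1315 and 13 reads, a 116-fold difference (67.4 to 218), and took 91.9% of lambda V reads in Bcat_Only (90.4 to 93.3) and 13 of 16 in Met_Bcat. Iglv3 had 96 and 3 reads. Iglv2 counted 20 reads against 0, which puts it at least 7.63-fold lower. Iglv1 and Iglv2 differ at 11 of 351 coding bases and are 96.9% identical. The last 240 bases, with the 6 differing bases among them in capitals, show how little separates the pair.
Iglv1: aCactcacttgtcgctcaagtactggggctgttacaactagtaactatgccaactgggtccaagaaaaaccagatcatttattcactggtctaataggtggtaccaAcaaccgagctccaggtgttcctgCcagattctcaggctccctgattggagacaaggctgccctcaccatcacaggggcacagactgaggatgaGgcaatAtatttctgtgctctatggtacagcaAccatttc
Iglv2: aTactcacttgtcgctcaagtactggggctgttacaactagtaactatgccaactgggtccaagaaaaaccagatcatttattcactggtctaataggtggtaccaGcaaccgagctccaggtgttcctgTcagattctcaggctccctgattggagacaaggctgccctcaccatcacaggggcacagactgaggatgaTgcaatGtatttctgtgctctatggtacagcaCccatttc
In each of them 75.7% of 51-base windows, the length of a read, occur in no other gene of the reference transcripts, so some reads cannot be placed in one rather than the other and the small Iglv2 count is uncertain. Iglc2 and Iglc3 are a like case, with 86.3% and 68.9% of windows unique, while Igkc and Ighm were at 100% and Ighg1 at 99.2%.

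Heavy V reads were spread widely in both libraries and no V gene dominated. In Bcat_Only 11733 heavy V reads fell on 96 of the 111 genes, and in Met_Bcat 162 reads fell on 54. At the depth of Met_Bcat, 162 reads drawn from those of Bcat_Only would be expected to reach 55.0 ± 3.08 (SD) genes, so the 54 found lay within the sampling spread. The effective number of V genes, the exponential of Shannon entropy and so the number of equally used genes with the same evenness, was 54.1 in Bcat_Only and 42.4 in Met_Bcat. At 162 reads it was 41.6 in Bcat_Only, close to the 42.4 of Met_Bcat. The unbiased inverse Simpson index, which depends less on depth, was 39.9 and 41.1.

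Ighv3-6 led both libraries, with 866 reads in Bcat_Only (7.38% of heavy V reads, 6.91 to 7.87) and 13 in Met_Bcat (8.02%, 4.34 to 13.3). Next in Bcat_Only came Ighv5-16 with 711 reads and 4 in Met_Bcat, Ighv1-82 with 447 and 3, and Ighv1-9 with 420 and 12. Ighv9-3 followed with 379 and 7 reads and Ighv7-3 with 323 and 1. In Met_Bcat the third place was shared by Ighv9-3 and Ighv1-26 at 7 reads, the latter with 295 in Bcat_Only. The 10 most counted genes took 37.2% of heavy V reads in Bcat_Only and 42.0% in Met_Bcat, shares not matched for depth. Of the 10, 3 to 6 were the same, depending on how ties at the tenth place are settled. Over the 53 heavy V genes with reads in both libraries, the median fold by which a gene was lower was 66.3. The fold ranged from 9.15 for Ighv1-61 to 369 for Ighv7-3. These ends rest on 3 and 1 reads in Met_Bcat, so counting error widens the range. The 111 genes' reads had a Spearman correlation of 0.70 between libraries, a description over genes that share the depth of their library.

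By family, Ighv1, the largest family with 55 rows, took 42.4% of heavy V reads in Bcat_Only (41.5 to 43.3) and 50% in Met_Bcat (42.1 to 57.9). Ighv5 took 15.3% and 13.6%, and Ighv3 9.25% and 9.88%, with overlapping intervals. Ighv14 took 4.76% in Bcat_Only and 1.85% in Met_Bcat (0.384 to 5.32), also with overlapping intervals. Ighv12, Ighv13 and Ighv16, families of 1 row each, had no read in Bcat_Only. Of the 16 heavy families only Ighv12, with the 2 reads of Ighv12-3 in Met_Bcat, had intervals that lie apart.

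Kappa V reads were also spread widely, with more depth behind them. In Bcat_Only 53638 reads fell on 98 of 103 genes, and in Met_Bcat 338 reads fell on 69, beside 67.8 ± 2.55 (SD) expected from Bcat_Only at 338 reads. The effective number was 56.5 in Bcat_Only and 47.5 in Met_Bcat, and 49.6 in Bcat_Only at the depth of Met_Bcat. The inverse Simpson index was 42.7 and 39.0. It took 17 kappa V genes to reach 50% of reads in Bcat_Only and 13 in Met_Bcat, counts not matched for depth.

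Igkv10-96 led both libraries, with 3924 reads in Bcat_Only (7.32%, 7.10 to 7.54) and 26 in Met_Bcat (7.69%, 5.09 to 11.1). Igkv15-103 had 2340 reads in Bcat_Only and 6 in Met_Bcat, Igkv6-15 had 2253 and 21, and Igkv4-55 had 1762 and 4. Igkv3-2 had 1741 and 5 reads, and Igkv14-111 had 1692 and 2. Below the leading gene the ranks differed: 2 of the 10 most counted kappa V genes were shared however ties are settled, and the 10 of Bcat_Only held 22.5% of Met_Bcat kappa V reads against 36.6% of their own. In Met_Bcat the third place was a tie of Igkv1-110 and Igkv5-39 at 16 reads each, which had 1110 and 1261 reads in Bcat_Only. Over the 69 genes with reads in both libraries the fold ranged from 13.7 for Igkv9-123 to 968 for Igkv14-111, with a median of 175. Both ends rest on 2 reads in Met_Bcat, so counting error widens this range as well. The Spearman correlation over the 103 genes was 0.74.

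**Figure D3:**
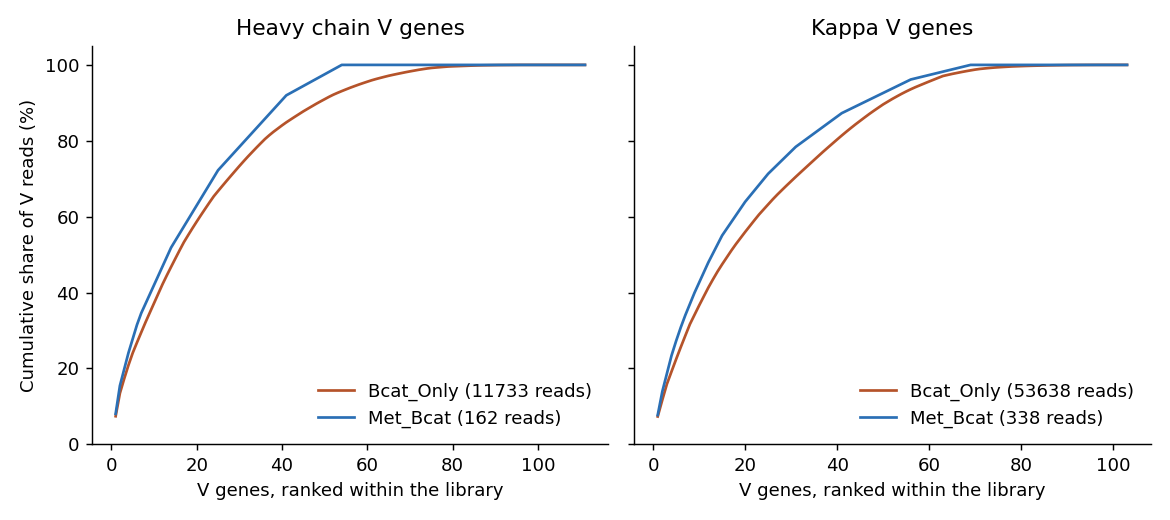
Cumulative share (%) of V reads over V genes ranked from most to least counted within each library, for heavy (left) and kappa (right) genes. The Met_Bcat lines rise faster and reach their full height at 54 and 69 genes, on 162 and 338 reads against 11733 and 53638.

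Among the kappa families, 6 of 19 had intervals that lie apart. Igkv14 took 6.60% of kappa V reads in Bcat_Only (6.39 to 6.82) and 1.48% in Met_Bcat (0.482 to 3.42), and Igkv15, of which Igkv15-103 is the only row, 4.36% and 1.78% (0.654 to 3.82). Igkv16, a single row as well, took 3.03% and 0.888% (0.183 to 2.57). Igkv1 took 8.91% in Bcat_Only and 12.7% in Met_Bcat (9.36 to 16.8). Igkv5 took 6.28% in Bcat_Only and 10.7% in Met_Bcat (7.57 to 14.4), and Igkv19, also a single row, 1.12% and 3.55% (1.85 to 6.12). That row, Igkv19-93, carries the symbol Igkv11-106 in GENCODE M21, so its family is uncertain. The larger families Igkv4, at 15.5% and 19.2% (15.2 to 23.8), and Igkv6, at 12.5% and 12.7%, had overlapping intervals.

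V genes from the whole length of each locus were used. The 37 heavy V genes nearest to Ighm held 37.4% of heavy V reads in Bcat_Only and 29.6% in Met_Bcat (22.7 to 37.3), the middle 37 held 36.3% and 46.9% (39.0 to 54.9), and the farthest 37 held 26.3% and 23.5% (17.2 to 30.7). Of the kappa V genes, the nearest 35 to Igkc held 36.9% and 38.8% (33.5 to 44.2), and the middle 34 held 23.5% and 28.4% (23.7 to 33.5). The farthest 34 held 39.7% (39.3 to 40.1) and 32.8% (27.9 to 38.1). The intervals of the libraries lay apart for the middle heavy and the farthest kappa V genes. They overlapped for the other position groups. The kappa locus holds V genes in both orientations, and those on the plus strand, the strand of Igkc, are joined by deletion, the others by inversion. The 40 V genes on the plus strand took 44.8% of kappa V reads in Bcat_Only and 31.4% in Met_Bcat (26.4 to 36.6).

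**Figure D4:**
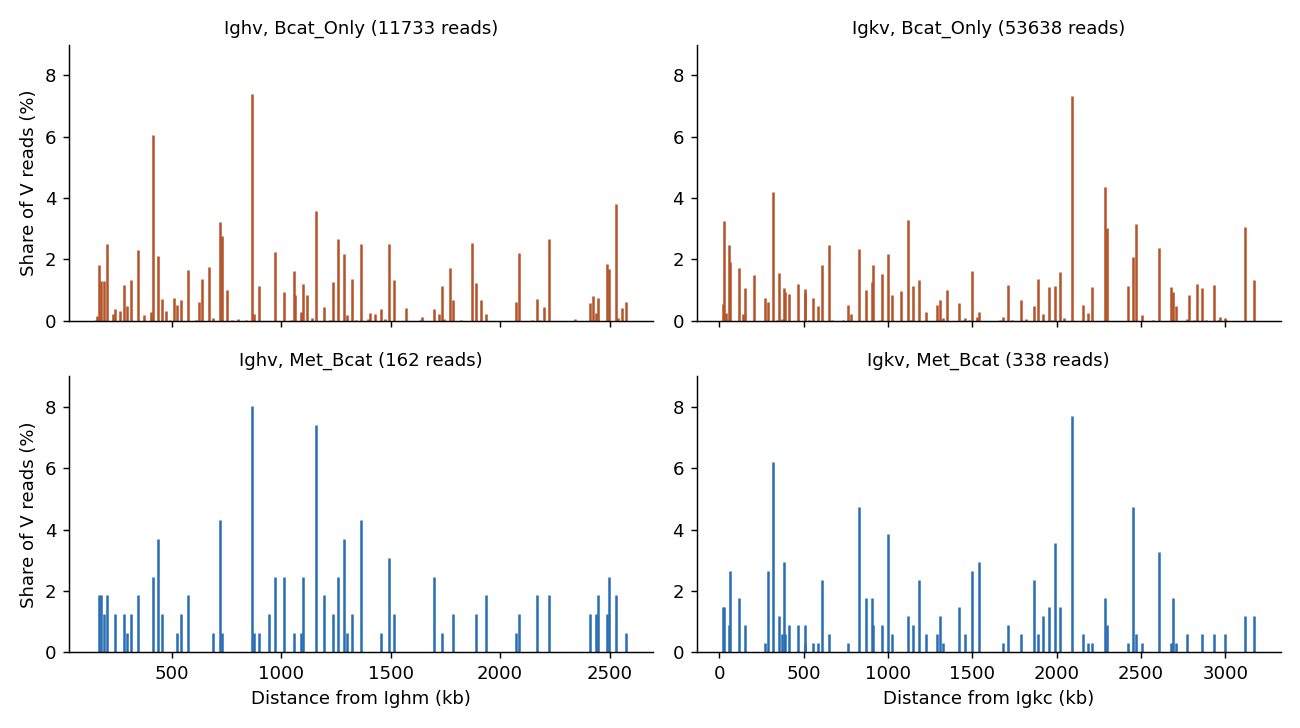
Share (%) of V reads of each V gene against its distance in kilobases from Ighm (left) or Igkc (right), 1 bar per gene, with Bcat_Only above and Met_Bcat below. Bars span both loci from end to end in each library, and the tallest bar in each panel is Ighv3-6 or Igkv10-96.

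V reads were set against the constant reads of the same chain. There were 0.262 kappa V reads per Igkc read in Bcat_Only (0.260 to 0.265), against 0.302 in Met_Bcat (0.267 to 0.341), values close to each other although their intervals do not overlap. Heavy V reads per heavy constant read were 0.0708 (0.0695 to 0.0721) and 0.471 (0.388 to 0.569), a wide gap. Heavy constant reads per Igkc read were 0.810 in Bcat_Only and 0.307 in Met_Bcat (0.272 to 0.347). The heavy constant reads leave out IgA and IgD, whereas heavy V reads can come from any isotype. The part of this in both ratios was not tested. Against the kappa V genes, the heavy V genes had 0.219 reads per read in Bcat_Only and 0.479 in Met_Bcat (0.395 to 0.580). The 4 heavy J segments, which the rule does not hold, had 802 and 48 reads in all. The 5 kappa J segments had 31 and 1.

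Most V genes share sequence with others, which limits how finely their reads can be assigned. The median heavy V gene had 77.7% of its 51-base windows unique and the median kappa V gene 77.1%, and 17 of 111 and 18 of 103 had under 50% unique. Igkv10-96 was at 67.0% and Igkv4-55 at 46.7%, so the count of Igkv4-55 is uncertain. In Bcat_Only the heavy V genes under 50% unique had a median of 6 reads and the others 72, while for kappa V genes the medians were 419 and 388. Whether reads that match several V genes entered the V totals is not given in the sources used here.

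Genes that mark the B lineage were also lower in Met_Bcat. Of 21 B cell genes, 17 were lower and 0 higher, with a median log2 ratio of -2.43 over the 19 with a mean of at least 1 CPM. Over all genes with that mean, 14.6% were lower, 4.42% were higher and the median was 0.03, and the lists that follow are to be read against these values. Cd79b, which with Cd79a forms the signalling part of the B cell receptor, had 240 reads in Bcat_Only and 1 in Met_Bcat. Cd79a had 273 and 6, and Ms4a1, the gene of CD20, had 266 and 4. Pax5, the transcription factor that fixes B cell identity, had 27 and 0, and Cr2, the complement receptor of mature B cells, had 71 and 0. These defining genes were at or near 0 in Met_Bcat. Blnk, an adaptor of B cell receptor signalling, had 2378 and 2374 reads and Blk, a kinase, 47 and 60, and neither was called.

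The plasma cell genes were split. Of 18, 8 were lower and 1 was higher, with a median log2 ratio of -0.71. The row 2010001M09Rik, an earlier symbol of Mzb1, a chaperone of antibody assembly, had 988 and 5 reads and was 226-fold lower (96.5 to 698). Pou2af1, a coactivator of antibody gene promoters, had 747 and 7 reads and was 122-fold lower. Bcat_Only had 443 antibody reads per Mzb1 read (416 to 472) and Met_Bcat 401 (172 to 1236), intervals that overlap. Antibody reads per Cd79a read were 1603 (1424 to 1812) and 334 (153 to 912), and per Sdc1 read 81.9 and 0.517, in both cases with intervals that lie apart. Irf4, a transcription factor of plasma cells, had 456 and 39 reads, and Tnfrsf17, the receptor BCMA, had 17 and 0. Xbp1, Sdc1 and Prdm1, plasma cell regulators and markers that epithelial cells can also express, were 1.64-fold, 1.58-fold and 1.26-fold lower, short of the rule. Creld2, an endoplasmic reticulum stress gene, was the 1 higher gene, with 1374 and 4030 reads. Of 13 genes for protein folding in the endoplasmic reticulum, 6 were higher and 0 lower, with a median log2 ratio of 0.77, beside 4.42% higher over all genes. The luminal markers, with 5 of 14 higher and a median of 0.39, moved the same way. Hspa5, the chaperone BiP, had 19030 and 60870 reads.

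Igj, the J chain that joins IgM and IgA into polymers, gave 7706 reads in Bcat_Only against 329 in Met_Bcat, or 26.8-fold fewer after scaling (24.0 to 30.0). Antibody reads per Igj read were 56.8 in Bcat_Only (55.5 to 58.1) and 6.09 in Met_Bcat (5.42 to 6.87). Igj reads per heavy constant read were 0.0465 and 0.956 (0.820 to 1.12), and Igj reads per Ighm read 4.90 and 1.89 (1.57 to 2.29). Since IgA is not analysed here, the share of Igj that goes with alpha chains could not be set beside these. Pigr, the epithelial receptor that carries polymeric antibody into secretions, had 40636 and 40495 reads, a 1.15-fold difference.

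Of 10 genes for Fc receptors and antibody transport, 9 had a mean of at least 1 CPM, and 6 of these were lower and 0 higher, with a median log2 ratio of -1.84. Trim21, a receptor for antibody inside cells, had 454 and 393 reads and was not called. Myeloid cells carry many of these receptors, and 11 of 12 macrophage genes and 12 of 12 neutrophil genes were lower as well. Their part in the Fc receptor values was not tested. Fcgr4, an activating receptor, had 732 and 51 reads, 16.4-fold lower in Met_Bcat. Fcgr2b, the inhibitory receptor, had 2806 and 371 and was 8.65-fold lower. Fcgrt, which rescues IgG from breakdown, had 2039 and 321 and was 7.27-fold lower.

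Among 16 genes for switch, survival and homing factors of B cells, 4 of the 6 with enough reads were lower and 0 higher. Cxcl13, the chemokine that draws B cells into follicles, had 6341 and 6 reads, 1209-fold lower in Met_Bcat (555 to 3296). Cxcl12, which holds plasma cells in their niches, had 7874 and 79 and was 114-fold lower (91.4 to 144). Il6, a survival factor of plasma cells, had 162 and 4. Il4, Il13 and Ifng had 1 read each in Bcat_Only and 0 in Met_Bcat, so the cytokines that steer switching to IgG1 and IgG2c were not measurable at this depth.

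Of 14 germinal centre and class switching genes 9 had a mean of at least 1 CPM, and 4 of these were lower, beside 14.6% of all genes. They were Pdcd1, Fas, Il21r and Batf, lower by 2.75-fold to 3.22-fold. Bcl6, the regulator of germinal centre B cells, had 1274 and 1533 reads. Rag1, a subunit of the recombinase that joins V, D and J segments, went the other way, from 0 reads in Bcat_Only to 77 in Met_Bcat or at least 22.4-fold more, while its partner Rag2 had 0 in both. Vpreb3 had 81 and 0 reads. Of the surrogate light chain genes of B cell precursors, Vpreb1 had 3 and 2 reads, and Vpreb2 and Igll1 had none in either library.

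**Figure D5:**
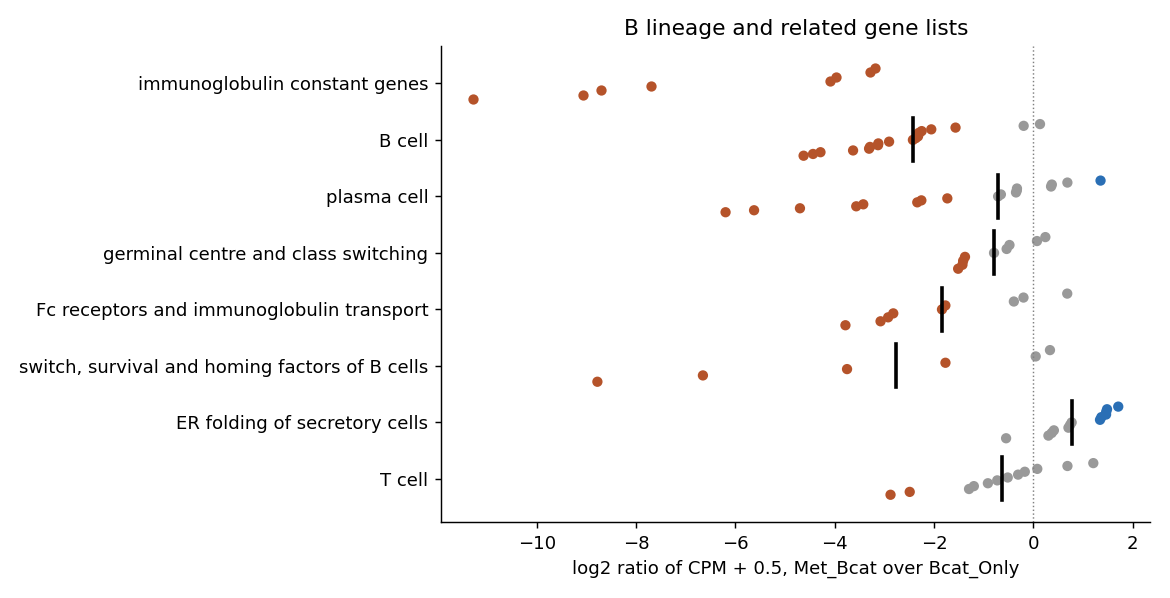
Log2 ratio of CPM + 0.5 (Met_Bcat over Bcat_Only) of each gene with a mean of at least 1 CPM, by list, with called lower genes in orange, called higher in blue, others in grey and black bars at list medians. Of the lists drawn, the point farthest left is Ighg1, while Ighm and Iglc2 lie among the B cell genes. B cell genes have a median of -2.43, and folding genes lie to the right at 0.77.

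Markers of other cells moved as well. Called lower were 12 of 12 neutrophil genes, 11 of 12 macrophage genes, 11 of 12 fibroblast genes, 8 of 8 smooth muscle genes, 6 of 8 endothelial genes and 7 of 8 seminal vesicle genes, beside 14.6% of all genes. Of 12 T cell genes 2 were lower, a share near that of all genes. The summed level was 24375 CPM in Bcat_Only and 1041 in Met_Bcat for fibroblast genes, 12007 and 1654 for neutrophil genes, and 6877 and 4.74 for seminal vesicle genes. T cell genes summed to 58.8 and 43.7 CPM and luminal genes to 4691 and 7948 CPM, with 1 of 14 luminal genes lower. The part of these other cells and of the dissected tissue in the antibody gene difference was not tested.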

How the data were processed

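RNA of prostate tumour tissue was sequenced as 2 libraries, 1 per genotype, as single-end reads of 51 bases from a stranded kit with 200 ng of RNA and 10 PCR cycles, per the labels' protocols. The authors deposited raw read counts, as whole numbers for each gene, with symbols, exon lengths and mm9 positions, per the file headers. TopHat2 version 2, HTSeq and edgeR appear in the submitters' processing notes, with build mm9. Their settings for strand and for reads that match several genes were not given in the sources used here. Counts of overlapping or near-identical genes can therefore be lost or split.

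The counts were scaled by TMM in edgeR 4.0.16 (R 4.3.3) over all 27376 genes. Shares and ratios carry exact Clopper-Pearson 95% intervals (SciPy 1.17.1), which cover counting error only. These intervals treat each read as independent, which PCR copies are not, so they can be too narrow. The calculations were tested on simulated data. Log2 ratios used a pseudocount of 0.5 CPM, which understates changes of low genes. Genes were called by the 2-fold rule on the interval, with a mean of at least 1 CPM, in place of a test.

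Text names were chosen by rule: all constant genes and lambda V genes, the 6 most counted heavy and kappa V genes of Bcat_Only, the 3 most counted of Met_Bcat, and leading or defining genes of each list. Blnk, Blk, Bcl6, Il4, Il13, Ifng, Trim21, Vpreb1, Vpreb2, Igll1, Igkv9-123, Ighv1-61 and the V families were named after their values were seen. Some genes of the lists are counted in them but not reported here by name. The genes and lists were chosen with earlier results of these data known. Sequences came from GENCODE M21 transcripts (GRCm38). Of 252 genes 251 matched, 100 by identifier and 151 by symbol. Of the former, 6 carry another symbol there, among them Igkv19-93 (Igkv11-106) and Ighv7-3 (Ighv7-1). Alternatives were other scalings, minimums, fold rules and pseudocounts, subsets of genes and other evenness measures.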

Additional observations from a re-analysis of the deposited data

How the results depend on the processing

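Over 76 results and 256 alternatives, 192 values stayed within the interval, within 1.5 times a count or within 0.5 of a median log2 ratio, and 64 moved. No called fold or list median changed sign. Which library had the higher effective number of heavy V genes did change: 54.1 in Bcat_Only and 42.4 in Met_Bcat by Shannon entropy, but 39.9 and 41.1 by inverse Simpson and 41.6 and 42.4 at equal reads. Each group has 1 library, so no replicate could be left out. No paired analysis was possible because each group has 1 library. Scaling by total counts gave a 227-fold lower antibody level and scaling on luminal markers 328-fold. Those scalings shifted log2 ratios by 0.13 and -0.39, and the count of lower genes was 148 and 153. A minimum mean of 10 CPM left 63 lower genes.

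The antibody share was 2.80% in Bcat_Only and 0.0118% in Met_Bcat without the 100 most counted other genes, 1.92% and 0.00740% on constant genes, and 0.346% and 0.00256% on V genes. Per kilobase, Bcat_Only shares were Ighm 0.720%, gamma 99.3%, Ighg1 62.2%, Ighg2b 13.4% and Ighg2c 23.6%, and Met_Bcat shares Ighm 45.1% and gamma 54.9%. Of gamma reads alone, Ighg1 was 58.9% and Ighg2c 27.9% in Bcat_Only, and Ighg1 20%, Ighg2b 28.8% and Ighg2c 51.2% in Met_Bcat. The kappa to lambda ratio in Bcat_Only was 37.5 on V genes, 139 on all rows and 872 per kilobase, and in Met_Bcat 21.1 on V genes and 83.4 per kilobase.

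For heavy V genes of Bcat_Only, the effective number was 39.9 by inverse Simpson, 52.9 over genes with at least 10 reads and 55.9 without the top gene. Of Met_Bcat it was 1.998 over genes with at least 10 reads. Detected genes there fell to 25 at 3 reads and 2 at 10 reads. For kappa V genes of Bcat_Only it was 42.7 by inverse Simpson, 58.5 without the top gene and 56.9 per kilobase. Of Met_Bcat it was 39.0 by inverse Simpson and 8.52 over genes with at least 10 reads, and 41 and 9 genes were detected at 3 and 10 reads. For lambda V genes of Bcat_Only it was 1.18 by inverse Simpson and 1.58 without Iglv1. Of Met_Bcat it was 1 with either the 10-read minimum or Iglv1 left out, with 1 gene detected at 10 reads. At the reads of Met_Bcat, 55.0 heavy and 1.88 lambda V genes of Bcat_Only were expected.

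Added after the data were seen, the effective number in Bcat_Only at the reads of Met_Bcat was 41.6 for heavy, 49.6 for kappa and 1.30 for lambda V genes. Over V genes with at least 50% of windows unique, it was 49.1 for heavy and 45.9 for kappa in Bcat_Only and 37.9 for kappa in Met_Bcat.

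Of the list counts, scaling on luminal markers gave 0 higher plasma cell genes, 4 lower T cell genes and 2 higher luminal genes. Scaling by total counts gave 1 higher T cell gene, 3 lower endothelial genes and 0 lower luminal genes. Depth limits the Met_Bcat values, which rest on 162 heavy V, 338 kappa V and 25 lambda constant reads.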
